A study of Mus musculus with 6 samples.

Results

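The transcripts described here are those of the antibody light chains and of the antibody variable segments, as read by 33 probe sets (groups of short oligonucleotides that together measure 1 target) out of 22690 on the array. They were taken as every probe set whose platform annotation names a gene starting with Igk, Iglc, Iglv, Iglj or Ighv and none of the heavy chain constant genes Igha, Ighm, Ighd, Ighg1, Ighg2b or Ighg3. Of the 33, 29 belong to the kappa light chain, 3 to the lambda light chain and 1 to a heavy chain variable segment. The group was proposed with the differences between genotypes already known, so those differences are given here as a description, and their standard errors and intervals state the spread between arrays and are no test of the group. In that sense the members were chosen by a gene name rule whose subject had been picked from the knockout against wild type contrast.

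An antibody is built from paired heavy and light chains. Each light chain comes from the kappa or the lambda locus, where developing B cells join 1 of many variable (V) segments to a joining (J) segment, and the joined exon is spliced to a constant segment. Light chain transcripts are a product of B cells and, at far higher levels, of antibody-secreting plasma cells, and T cells do not normally make rearranged light chains. In the mouse the kappa locus supplies most light chains, and its V segments fall into families of closely related sequence.

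The samples were regulatory T cells (Treg), separated magnetically as CD4+CD25+ cells, from mice with HDAC6 knock out (3 arrays) and from wild-type C57BL6 mice (3 arrays). HDAC6 is a mostly cytoplasmic deacetylase. The strain of the knockout mice, the ages, the deleted part of the gene, the source organ and whether an array held 1 animal or a pool were not given in the sources used here. The design text calls the samples independent, without naming animals, so the spread between them is the spread of these preparations.

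All levels are the authors' deposited log2 values, on which a difference of 1 is a doubling, and differences are knockout minus wild type. The 6 arrays had medians from 6.22 to 6.27, lower quartiles from 4.14 to 4.25 and maxima up to 14.51. The Hdac6 probe set read 7.54 to 7.86 in the knockout and 8.23 to 8.54 in wild type, a difference of -0.71 (SE 0.11) that did not pass limma's threshold (adjusted p = 0.0875). Of 15 measured T cell and Treg identity genes 9 were higher and 6 lower, with a median of 0.06, and 0 passed limma's threshold or had an unadjusted p under 0.05. Over all 22626 tested probe sets 0.0796% passed as higher in the knockout (adjusted p under 0.05) and 0.115% as lower, and 10.6% had an unadjusted p under 0.05 in either direction. Foxp3, the factor that defines Treg, differed by 0.06 (SE 0.08, limma adjusted p = 0.860), the sorting marker Il2ra by 0.01 (SE 0.12, adjusted p = 0.981) and the T cell receptor subunit Cd3e by -0.09 (SE 0.07, adjusted p = 0.721).

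Kappa light chain probe sets were higher in the knockout preparations in 26 of 29 cases, with a median difference of 0.53 and a range from -0.24 to 2.20. Over all 22626 tested probe sets 49.6% were higher and the median was 0.00. In 21 of the 29 every knockout array lay above every wild-type array, against 7.68% of all probe sets, and in 0 did every knockout array lie below. These counts come from the contrast that led to the group and are read no further.

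**Figure D1:**
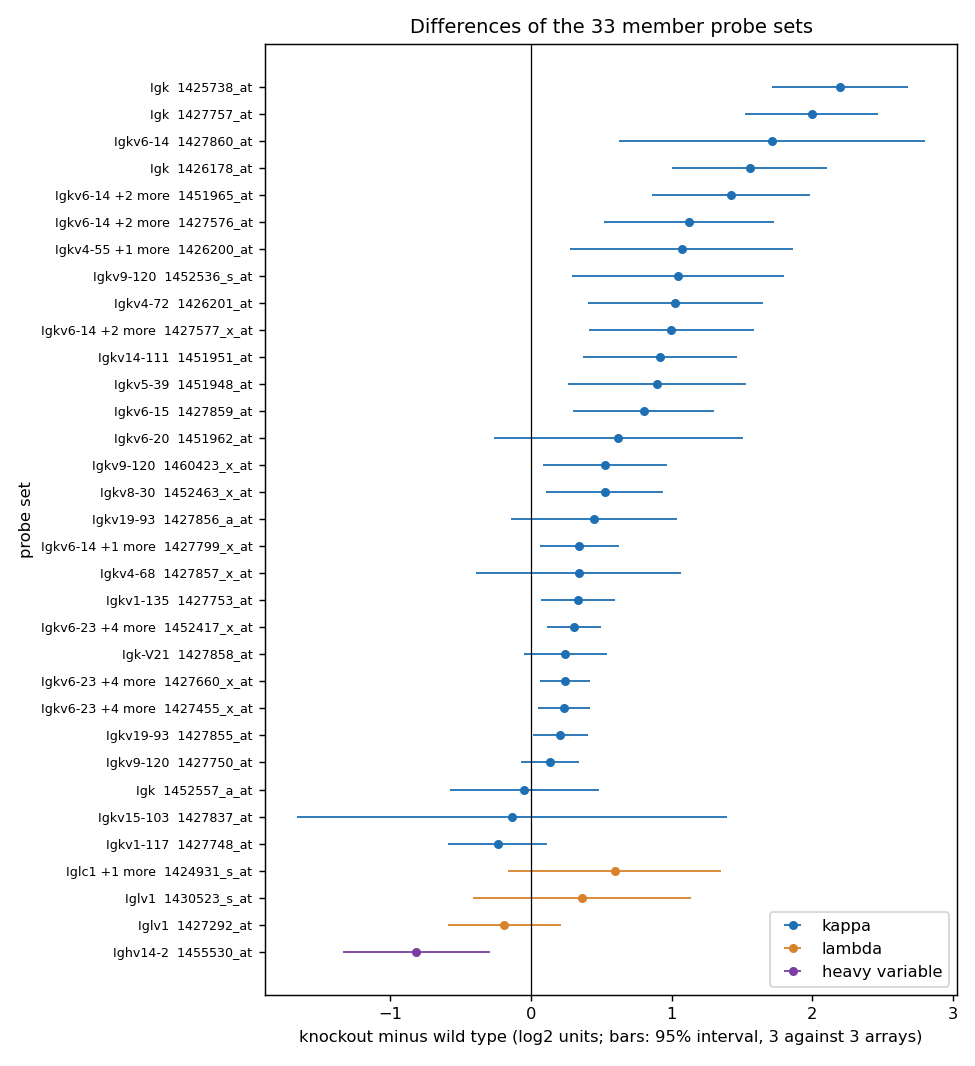
Knockout minus wild type in log2 units (x axis) for each of the 33 probe sets (y axis, first annotated gene and probe set ID), with 95% intervals from the fit to 3 against 3 arrays. Of 29 kappa probe sets 26 lie to the right of 0, up to 2.20, while 1 of 3 lambda probe sets and the heavy variable probe set lie to the left.

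The largest difference belonged to a probe set annotated to the kappa locus as a whole, Igk on mouse chromosome 6 (1425738_at). It read 11.23, 11.58 and 12.09 in the knockout arrays and 9.58, 9.41 and 9.31 in the wild-type arrays. The difference was 2.20 (SE 0.20, 95% interval 1.72 to 2.68), 4.59-fold, and the genotypes were separated by more than the spread within either. A second Igk probe set (1427757_at) read 8.57, 8.24 and 8.89 in the 3 knockout arrays, against 6.25, 6.85 and 6.61 in wild type, a difference of 2.0 (SE 0.20). Which V segment either one carries was not given in the annotation used here.

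The 2 other probe sets annotated to Igk as a whole went separate ways. A dim one (1426178_at) read 5.72, 6.22 and 6.41 in the 3 knockout arrays, against 4.19, 4.54 and 4.95 in wild type, a difference of 1.56 (SE 0.23), again without overlap. The remaining one (1452557_a_at) read 7.25, 7.72 and 7.29 in the 3 knockout arrays, against 7.80, 6.98 and 7.62 in wild type. Its arrays were intermixed and its difference was -0.05 (SE 0.23). The same locus name therefore covers the largest difference in the group and 1 of its smallest.

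Among V segments the Igkv6 family, whose members are close neighbours at the constant end of the locus, was higher throughout. All 10 probe sets that name an Igkv6 gene were higher, 9 of them without overlap, and the 7 of these that do not also name the constant gene had a median of 1.0. This was not particular to the family: of the 19 kappa probe sets that name no Igkv6 gene 16 were higher, 12 of them without overlap. Over all tested probe sets 49.6% were higher, and 7.68% were higher without overlap. Igkv6-14 (1427860_at) read 11.75, 10.07 and 10.20 in the 3 knockout arrays, against 8.38, 9.23 and 9.25 in wild type, a difference of 1.72 (SE 0.46, 95% interval 0.63 to 2.81). Knockout replicate 1 stood well above the other knockout arrays, which were themselves above all wild-type arrays. Igkv6-15 differed by 0.80 (SE 0.21). Igkv6-20 differed by 0.62 (SE 0.38), with knockout replicate 3 at 8.53 and its other knockout arrays at 7.11 and 7.12, within the wild-type range of 6.66 to 7.12.

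Several probe sets cannot be given to 1 V segment. Igkv6-14, Igkv6-23 and Igkv8-19 share 3 probe sets. The first (1451965_at) read 11.01, 10.80 and 11.54 in the 3 knockout arrays, against 9.64, 10.09 and 9.35 in wild type, a difference of 1.42 (SE 0.24). The second (1427576_at) read 8.36, 8.27 and 8.78 in the 3 knockout arrays, against 6.78, 7.52 and 7.74 in wild type, a difference of 1.12 (SE 0.26), and the third (1427577_x_at), designed from the same source sequence, differed by 1.0 (SE 0.25). All 3 were higher without overlap, against 7.68% of all probe sets. Igkv6-14 and Igkv6-23 share a further probe set (1427799_x_at) that was dim in every array, between 2.65 and 3.32, and differed by 0.34.

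The Igkv4 family and segments from farther along the locus were also mostly higher. Igkv4-72 (1426201_at) had a knockout mean of 9.13 and a wild-type mean of 8.10 (SD 0.38 and 0.45, n = 3 each) and differed by 1.03 (SE 0.26) without overlap. A probe set shared by Igkv4-55 and Igkv4-68 (1426200_at) differed by 1.07 (SE 0.34). Igkv4-68 on its own probe set (1427857_x_at) differed by 0.34 (SE 0.31), and its highest array of all, at 8.07, was wild type replicate 3. Igkv14-111 (1451951_at) averaged 10.37 in the knockout and 9.45 in wild type (SD 0.34 and 0.39, n = 3 each), a difference of 0.92 (SE 0.23) without overlap. Igkv5-39 differed by 0.90 (SE 0.27) at low signal.

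**Figure D2:**
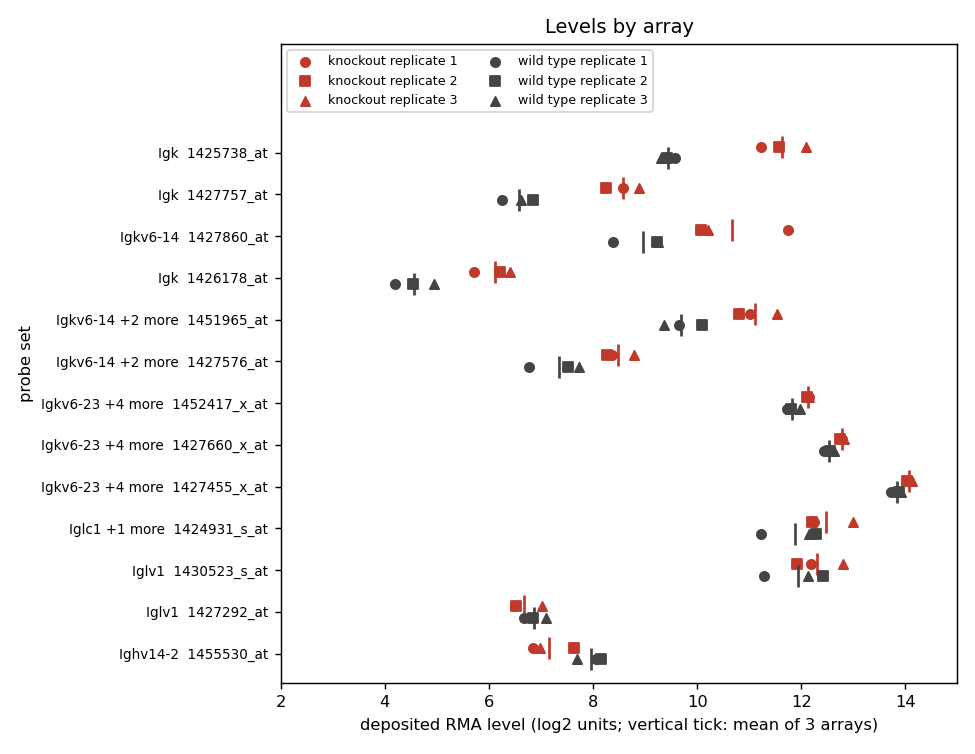
Deposited level in log2 units (x axis) of the 6 kappa probe sets with the largest difference, the 3 that name Igkc, and the lambda and heavy variable probe sets (y axis), with 1 point per array and a tick at each mean of 3 arrays. In the 9 kappa rows every knockout point lies to the right of every wild-type point; in the 3 lambda rows the genotypes overlap, and in the Ighv14-2 row they are separated the other way.

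Probe sets that name Igkc, the kappa constant gene and so the part that kappa transcripts share, had small differences with a tight spread. All 3 name Igkv6-23, Igkv4-53, Igkv8-30, Igkj1 and Igkc together. The brightest (1427455_x_at) read 14.07, 14.04 and 14.12 in the 3 knockout arrays, against 13.72, 13.88 and 13.92 in wild type, a difference of 0.24 (SE 0.08). It lay near the highest values on the arrays, where a difference can be understated, but whether this one was understated was not tested. The others read 12.74 to 12.81 against 12.44 to 12.63 (difference 0.24, SE 0.08) and 12.12 to 12.16 against 11.73 to 11.97 (difference 0.31, SE 0.08). In each of the 3 the knockout arrays were above the wild-type arrays, against 7.68% of all probe sets.

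The differences varied with the signal of the probe set. In the 15 kappa probe sets with a mean level from 6 to 12 the median difference was 1.03, and 13 were higher, 11 of them without overlap. Over all probe sets at that level 43.5% were higher and the median was -0.02. In the 4 with a mean of 12 or more the median was 0.38, and all 4 were higher without overlap. Over all 355 probe sets at that level 24.8% were higher and the median was -0.03. Over all probe sets with a mean under 6, 57.0% were higher and the median was 0.02. Over all 22626 tested probe sets, levels pooled, 7.68% were higher without overlap, and this share was not computed by level. In the 10 kappa probe sets with a mean under 6 the median was 0.34, and 9 were higher, 6 of them without overlap. Without detection calls it is not established that those dim segments were expressed; 4 of the 33 members lay below the lower quartile in all 6 arrays.

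**Figure D3:**
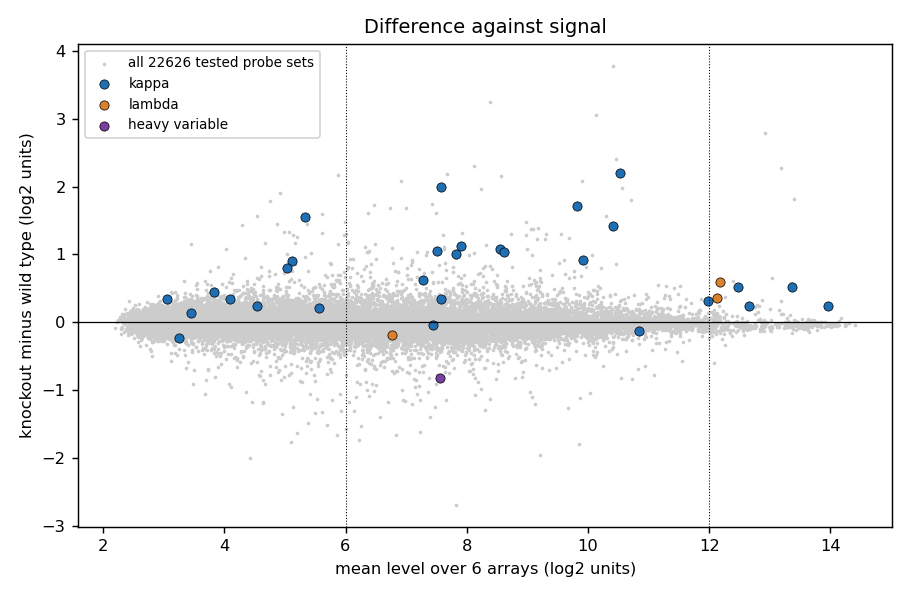
Knockout minus wild type (y axis, log2 units) against the mean level over 6 arrays (x axis, log2 units), with all 22626 tested probe sets in grey and dotted lines at 6 and 12. The coloured kappa points reach furthest from 0 between 6 and 12, with a median of 1.03, and lie nearer 0 at either end, with medians of 0.34 and 0.38.

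Probe sets drawn from the same source sequence could disagree, which bears on how many separate observations the group holds. The 33 members trace to 25 named source sequences (1 names none), and 13 of them share 6 sources. Igkv9-120 has 3 probe sets: 1452536_s_at differed by 1.05 (SE 0.32), 1460423_x_at by 0.53 (SE 0.19) and the dim 1427750_at by 0.14 (SE 0.09). The first and the last of these come from 1 source sequence. A single source also underlies Igkv6-14 at 1.72 and Igkv6-15 at 0.80, and another underlies the 2 probe sets of Igkv19-93, at 0.45 and 0.21, and Igkv4-68 at 0.34. Of the kappa members 9 have IDs ending in _x_at or _s_at, designs that may match several related transcripts. Those had a median of 0.34 and the 18 ending in plain _at a median of 0.91. Every kappa probe set with a mean level of 12 or more ended in _x_at, so these medians do not separate design from signal. Because V segments of a family are near-identical in parts, signal cannot be assigned to a single segment with certainty for any of these probe sets.

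Along the kappa locus the higher probe sets were not gathered in 1 stretch. Start positions in RefSeq (GRCm38.p6) were used only to put the genes in order. In that order 162 kappa V entries precede the constant gene, and 16 member probe sets name exactly 1 of them. The 6 that name 1 of the 81 entries nearer the constant gene were all higher, with a median of 0.71, and of the 10 among the 81 farther entries 8 were higher, with a median of 0.39. The difference between these stretches was not tested. The kappa members that were not higher in the knockout were Igkv1-117 (1427748_at) at -0.24 (SE 0.15), Igkv15-103 (1427837_at) at -0.14 (SE 0.65), both in the farther stretch, and the Igk probe set 1452557_a_at described above. Igkv15-103 varied most within a genotype, with 10.76, 9.98 and 11.59 in its knockout arrays against 9.47, 11.75 and 11.53.

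**Figure D4:**
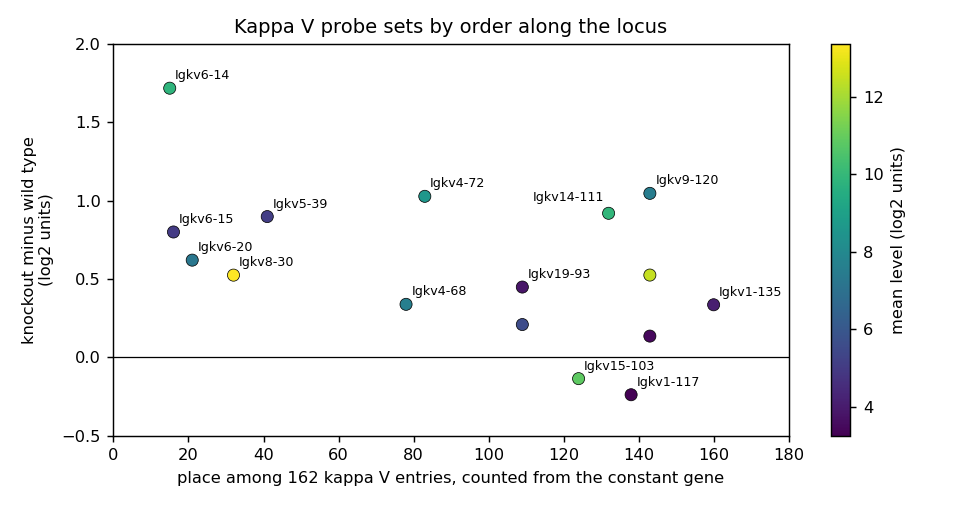
Knockout minus wild type (y axis, log2 units) for the 16 probe sets that name exactly 1 kappa V segment, by the place of that segment among 162 entries counted from the constant gene (x axis), coloured by mean level in log2 units. Of the 16 points 14 lie above 0, from Igkv6-14 at 1.72 near the constant gene to Igkv1-135 at 0.34 at the far end.

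Lambda light chain probe sets showed no separation of the genotypes. The lambda locus, on mouse chromosome 16, was read by 3 probe sets, 2 higher and 1 lower, with 0 of the 3 free of overlap. The probe set that names the constant gene Iglc1 with Iglv1 (1424931_s_at) read 12.24, 12.21 and 12.99 in the 3 knockout arrays, against 11.23, 12.28 and 12.16 in wild type, a difference of 0.60 (SE 0.32, 95% interval -0.16 to 1.35). Iglv1 read 12.20, 11.92 and 12.80 against 11.28, 12.42 and 12.12 on a bright probe set (1430523_s_at), a difference of 0.36 (SE 0.33). On a probe set of middle signal (1427292_at, mean level 6.77, above every array median) it read 6.49, 6.52 and 7.02 against 6.67, 6.85 and 7.09, a difference of -0.19 (SE 0.17). In the bright pair, wild type replicate 1 was about 1 unit below the other wild-type arrays and knockout replicate 3 was the highest array. The median lambda difference of 0.36 dropped to 0.03 when wild type replicate 1 was left out, and to 0.11 when knockout replicate 3 was. The 4 kappa probe sets with a mean of 12 or more, a signal nearer that of the bright pair, differed by 0.24 to 0.53, with a median of 0.38. Whether kappa and lambda differ from each other was not tested.

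The heavy chain variable segment went the other way. Ighv14-2, on mouse chromosome 12, read 6.84, 7.63 and 6.97 in the 3 knockout arrays, against 8.05, 8.16 and 7.69 in wild type (1455530_at), a difference of -0.82 (SE 0.22, 95% interval -1.34 to -0.29). Every knockout array lay below every wild-type array, which held for 9.48% of all probe sets in that direction. The 4 probe sets left out because they also name a heavy chain constant gene did not share this direction. Of these, 3 name Ighv14-2 with Ighg3 and Ighm and differed by 0.20, 0.37 and 0.52. The remaining one, which names Ighv1-72 with Ighm (1427851_x_at), read 8.01, 8.05 and 7.79 against 5.71, 6.11 and 5.77, a difference of 2.09 (SE 0.13).

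The heavy chain constant genes, partners of the light chains in a finished antibody, were uneven. Of 8 listed, 3 were measured on a probe set of their own, and 1 rose. Igha, the gene for the IgA constant region, rose by 1.81 (SE 0.14, limma adjusted p = 0.00799 over all probe sets), from 12.18, 12.58 and 12.70 in wild type to 14.27, 14.27 and 14.36 in the knockout arrays. Those knockout levels lay near the array maxima, so the difference may be understated, which was not tested. Its adjusted p was 0.0576 without knockout replicate 2, and 0.00654 to 0.0489 with any other array left out. The 2 other Igha probe sets rose by 2.28 (1425763_x_at, adjusted p = 0.00767) and 2.79 (1429381_x_at, adjusted p = 0.00474); without knockout replicate 2 these were at 0.0576 and 0.0356. Ighm on its brightest probe set differed by -0.02 (SE 0.10, adjusted p = 0.974) at the top of the scale, and Ighg3 by 0.03 (SE 0.54, adjusted p = 0.991). The brightest probe set does not speak for every probe set of these genes. Of 11 Ighm probe sets 8 were higher and 3 lower, with a median of 0.05 and 7 within 0.2 of 0, and 0 passed. Several of those near 0 had a wide spread, with wild type replicate 2 far below the other wild-type arrays. For example, 1425247_a_at read 9.93, 6.62 and 10.53 in wild type and differed by 0.04 (SE 0.95). Such values are too uncertain to show that Ighm was unchanged. The Ighm probe set with the largest difference (1425385_a_at) read 12.14, 12.90 and 11.85 against 9.17, 7.14 and 9.25, a difference of 3.78 (SE 0.57, adjusted p = 0.0787). Of 4 Ighg3 probe sets 3 were higher and 1 lower, with a median of 0.31. A dim one (1426199_x_at) rose by 1.16 (SE 0.08, adjusted p = 0.00767, or 0.0576 without knockout replicate 2). The probe sets of Ighm and Ighg3 named here by ID were singled out after their values were seen.

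Within a genotype the members tended to be high or low in the same arrays. In wild type, replicate 1 was the lowest of the 3 arrays in 22 of 29 kappa and in all 3 lambda probe sets, while over all probe sets it was the lowest in 35.0%. In the knockout, replicate 3 was the highest in 20 of 29 kappa and in all 3 lambda probe sets. How often it was the highest over all probe sets was not computed. Knockout replicate 2 was the lowest in 19 of 29 kappa probe sets, against 28.3% of all probe sets. Relative to the wild-type mean, the kappa median was 0.50, 0.34 and 0.73 in the knockout arrays and -0.28, 0.06 and 0.16 in the wild-type arrays, without overlap. The kappa median difference was 0.39 with wild type replicate 1 left out and 0.37 with knockout replicate 3 left out.

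Plasma cell genes were higher in the same arrays. Of 22 listed genes 20 were measured, 18 higher and 2 lower, with a median of 0.34. Without overlap 10 were higher, against 7.68% of all probe sets. In limma 10 had an unadjusted p under 0.05, against 10.6% of all probe sets, and 0 passed the threshold over all probe sets. The list was chosen with earlier results of these data known, so these counts are a description. Jchain, which links secreted IgA and IgM, read 13.60, 13.59 and 13.74 against 12.74, 13.20 and 13.26, a difference of 0.58 (SE 0.14, limma adjusted p = 0.218). Tnfrsf17, the plasma cell survival receptor BCMA, differed by 1.15 (SE 0.29, adjusted p = 0.228), reading 6.48, 5.87 and 7.0 against 4.91, 5.49 and 5.51. Xbp1, a driver of antibody secretion, differed by 0.40 (adjusted p = 0.223), Sdc1, the surface marker CD138, by 0.64 (adjusted p = 0.367), Edem1 by 0.67 (adjusted p = 0.146) and Txndc5 by 0.82 (adjusted p = 0.187). Irf4 and Prdm1, factors that Treg use as well, differed by 0.32 and 0.13. The mean level of the 20 genes was 8.61 to 8.99 in the knockout arrays and 8.31 to 8.49 in the wild-type arrays. Relative to the wild-type mean their median was 0.41, 0.16 and 0.51 in the knockout arrays, with replicate 2 lowest and replicate 3 highest, as for kappa. In the wild-type arrays it was -0.09, 0.08 and 0.05. There replicate 1 was lowest, as for kappa, but replicate 2 was highest, where kappa had replicate 3. Mzb1 and Cd38 were not analysed here. In a bulk preparation more cells of a type and more RNA per cell cannot be told apart, and the part of plasma cell RNA in the light chain values was not tested.

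**Figure D5:**
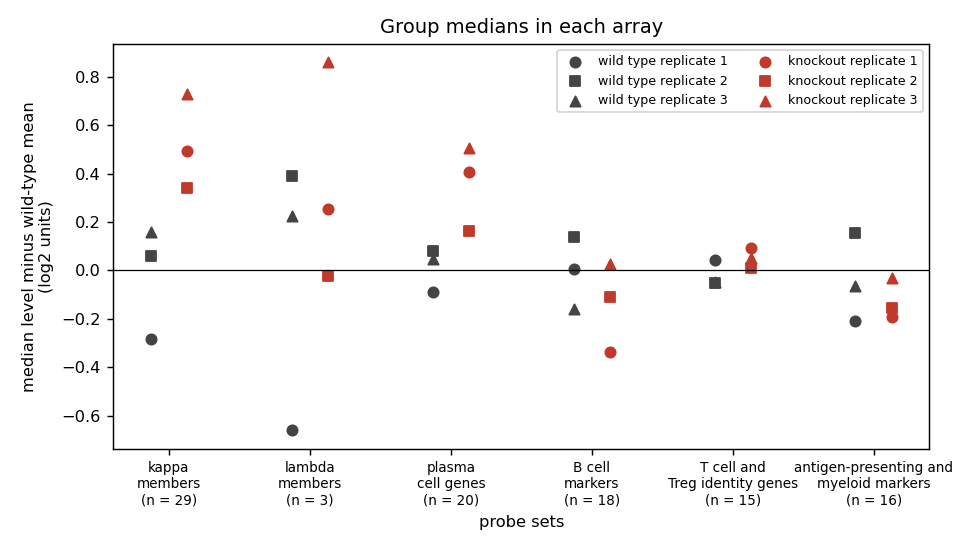
Median over probe sets of the level minus the wild-type mean (y axis, log2 units) in each of the 6 arrays, for the kappa and lambda members and for 4 gene lists (x axis). The knockout arrays lie above the wild-type arrays for kappa (0.34 to 0.73 against -0.28 to 0.16) and for plasma cell genes, and overlap them for the lambda members and for the B cell, T cell and myeloid lists.

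Markers of mature B cells did not share this direction. Of 20 listed genes 18 were measured, 8 higher and 10 lower, with a median of -0.14, and 0 passed limma's threshold, with 4 at an unadjusted p under 0.05. Ms4a1, which encodes CD20, read 7.40, 8.11 and 7.96 in the 3 knockout arrays, against 9.04, 9.44 and 8.38 in wild type. It differed by -1.13 (SE 0.29, adjusted p = 0.236). Spib, a B cell transcription factor, differed by -0.94 (adjusted p = 0.230), Ebf1 by -0.44 (adjusted p = 0.441) and Bcl11a by -0.44 (adjusted p = 0.367). The antigen receptor subunits Cd79a and Cd79b, which carry membrane antibody, differed by 0.14 (SE 0.18) and -0.32 (SE 0.15). The mean level of the 18 markers was 6.84 to 7.27 in the knockout arrays and 7.15 to 7.45 in the wild-type arrays, and none lay below the lower quartile in all 6 arrays. The 16 myeloid and antigen-presenting markers split into 5 higher and 11 lower (median -0.16, 0 passed, with 3 at an unadjusted p under 0.05), among them H2-Eb1 at -0.30 and H2-Aa at -0.34. Their mean level was 6.77 to 7.19 in the knockout arrays and 7.01 to 7.56 in the wild-type arrays.

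The machinery that makes, assembles and uses light chains showed no member past limma's threshold. Of 13 transcription factors that act at light chain genes 8 were higher and 5 lower, with a median of 0.05. Pou2f2, the octamer-binding factor Oct-2, differed by 0.47 (SE 0.12, adjusted p = 0.214) without overlap, and its coactivator Pou2af1 by 0.12 (adjusted p = 0.773). Spib and Ebf1, also on this list, were lower, at -0.94 (adjusted p = 0.230, without overlap) and -0.44 (adjusted p = 0.441). Of 12 genes of the surrogate light chain and of V(D)J recombination 9 were higher and 3 lower, with a median of 0.09. The recombinase genes Rag1 and Rag2 lay below the lower quartile in all 6 arrays, at 2.93 to 3.59 and 3.48 to 4.02. The surrogate light chain gene Igll1 differed by 0.03, Vpreb3 by 0.48 (SE 0.14, adjusted p = 0.282) and Dntt, which adds bases at heavy chain joints, by 0.93 (SE 0.37, adjusted p = 0.432).

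Of 20 genes that fold and export antibody in the endoplasmic reticulum 11 were higher and 9 lower, with a median of 0.04. Hspa5, the chaperone BiP that holds unpaired heavy chains, differed by 0.07 (SE 0.07, adjusted p = 0.792), Manf by 0.45 (adjusted p = 0.208) and the oxidase Ero1b by -0.41 (adjusted p = 0.197). Of 15 B cell receptor signalling genes 10 were higher and 5 lower (median 0.04), with the adaptor Dapp1 at 0.26 (adjusted p = 0.323) and the coreceptor subunit Cd81 at 0.21 (adjusted p = 0.367). Of 12 genes of class switching and antibody transport 5 were higher and 7 lower (median -0.01), with the Fc receptor gene Fcgr3 at -0.57 (adjusted p = 0.509). At an unadjusted p under 0.05 there were 3 of the transcription factors, 2 of the recombination genes, 2 of the folding genes, 2 of the signalling genes and 0 of the transport genes, against 10.6% of all probe sets.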

How the data were processed

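Per the submitters' processing notes the authors' values came from RMA (background correction, quantile normalization and summary of each probe set), version not given. The range of the deposited values fits a log2 scale, which was assumed. RMA compresses differences at both ends of the scale. The 64 array control probe sets were left out, which left 22626. Knockout and wild type were compared over all of them by limma (version 3.58.1, R 4.3.3; lmFit, then eBayes, genotype as the only term), with two-sided p-values, Benjamini-Hochberg adjustment over all probe sets and a threshold of 0.05. Precision is limited by having 3 arrays a group; the median SE was 0.10. The fit was tested on simulated data. Symbols came from the platform annotation, updated through gene IDs to RefSeq. List genes were read from their brightest probe set annotated to that gene alone.

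The members, the 10 gene lists and the alternatives were chosen with earlier results of these data known. Array values are given for the 6 kappa members with the largest difference and for all lambda and heavy variable members; members that name a constant gene, up to 4 genes of a list with the smallest p, and a fixed set of B cell, plasma cell and Treg genes are also named. Other members were named to account for their class. Alternatives tried were quantile normalization, a replicate block, median centring, trend and robust eBayes, array weights, a minimum mean of 6, a threshold of 0.1, probe set subsets and leaving out each array. Same-numbered arrays were not treated as pairs: their deviations from the group means correlated at 0.22, -0.09 and 0.10. Figures used matplotlib 3.10.9.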

Additional observations from a re-analysis of the deposited data

How the results depend on the processing

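Without wild type replicate 1, the difference of Iglv1 (1430523_s_at) dropped from 0.36 to 0.03 and that of the Iglc1 probe set from 0.60 to 0.27. Over all probe sets 44 passed, and 86 with array weights, 27 with the replicate block, 147 with trend and robust eBayes, 121 at a threshold of 0.1, and 5 to 51 with 1 array left out. Of the members, whose subject came from this contrast, 2 passed, which is a description and no test of them, against 3 with array weights, 3 with trend and robust eBayes, 4 at a threshold of 0.1 and 0 to 2 with 1 array left out. With the replicate block 2 passed, of which 0 were those of the fit without it. The list gene call, Igha, was lost without knockout replicate 2 (0 calls, 0 to 1 over the arrays left out) and held under the other alternatives. The kappa median of 0.53 was 0.92 with a minimum mean of 6, which keeps 19 of 29 probe sets, and 0.85 without _x_at and _s_at designs, and ran from 0.37 to 0.69 with 1 array left out. The lambda median of 0.36 was -0.19 without those designs, which leaves 1 probe set, and ran from 0.03 to 0.60. The Ighv14-2 difference ran from -1.06 to -0.66. The cause of the other shifts was not tested. With 3 arrays a group, differences in dim probe sets and near the top of the scale are the least certain.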
